A study of Mus musculus with 31 samples.

Results

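Ribosomal protein pseudogenes are copies of ribosomal protein mRNAs that were reverse transcribed and inserted elsewhere in the genome, and they carry the symbol of the parent gene followed by -ps. The genes described here are those whose GENCODE symbol on GRCm38 begins with Rpl or Rps and carries -ps, with at least 10 reads in total over 31 mice. Of the 48709 genes in the count tables, 276 fitted the symbol rule and 164 of these had enough reads, while 72 had reads but fewer than 10 and 40 had none. The annotation calls 156 of the 164 processed pseudogenes, 4 transcribed processed pseudogenes and 4 protein coding (Rpl10-ps3, Rps12-ps3, Rpl36a-ps1 and Rpl36-ps4). They lay on 19 chromosomes, with 26 on chromosome X, and were copies of 51 parent genes.

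Ribosomal proteins are built into the small subunit (Rps genes) or the large subunit (Rpl genes) of the ribosome, and their mRNAs are among the most abundant in any cell. A processed copy lacks introns and usually has no promoter of its own, so that many copies are not thought to be transcribed. Because copies can be nearly identical to the mature mRNA of the parent, a short sequencing read may match several of them equally well, and a quantifier such as Salmon then divides the read among the matching transcripts by a statistical model. The counts below are therefore estimates, and a value assigned to a pseudogene is not by itself a measure of its transcription.

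RNA came from punches of the basolateral amygdala (BLA), with left and right pooled for each mouse, and was sequenced by QuantSeq, which reads the 3′ end of polyadenylated transcripts. There were 16 WT mice, labelled Control, and 15 CYFIP1 OE mice, which carry a human CYFIP1 bacterial artificial chromosome on a C57BL/6N background and were bred from founders as lines labelled 1 and 3. Line 1 had 8 WT and 7 CYFIP1 OE mice and line 3 had 8 of each; WT mice (8 males, 8 females) were 58 to 61 days old and CYFIP1 OE mice (7 males, 8 females) 58 to 77 days, the 4 oldest all being CYFIP1 OE mice of line 1. Mice are numbered within genotype, and mice that share the part of the label before the last number are called a name group, of which there were 10; the labels do not say whether these were litters.

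Total estimated counts ranged from 5286925 to 8685521 per mouse with a median of 7387798. The mouse gene Cyfip1 averaged 35.1 CPM in WT (SD 6.19, n = 16) against 31.6 CPM (SD 4.61, n = 15) in mice with the transgene, and since reads of the human transgene were not counted separately it does not check the genotype labels. All 4 glutamatergic and all 4 basolateral amygdala markers listed averaged at least 1 CPM, as did the listed markers of striatum, thalamus, glia and blood. This floor does not show how much of a punch was BLA. In WT the striatal markers summed to a median of 1806 CPM (185 to 2639), against 184 CPM (95.5 to 342) for the BLA markers. In CYFIP1 OE mice the medians were 1681 CPM (129 to 3194) and 149 CPM (98.2 to 575). The mouse CYFIP1 OE 1 stood apart, with a connectivity Z-score (how well its expression profile matched the others, in SDs) of -4.80, where all other mice lay between -1.24 and 0.868. Results that rest on this mouse are given with and without it where both were run.

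The pseudogenes together took a small share of all reads. The share ran from 0.249% to 0.385% in WT with a median of 0.322%, and from 0.0528% to 0.351% in CYFIP1 OE mice with a median of 0.290%. The lowest value was that of CYFIP1 OE 1, and without it the 30 mice ran from 0.232% to 0.385%, so that the genotypes overlapped. Of the reads on pseudogenes and their 51 parents, the pseudogenes held a median of 23.9%, with 6.64% in CYFIP1 OE 1 and 21.4% to 27.2% in the other mice.

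These reads were unevenly spread over the 164 genes. The total over 31 mice had a median of 123 reads per pseudogene and ran from 10 to 162327. A single gene, Rps23-ps1, held 23.6% of all pseudogene reads, the top 6 held 55.5% and the top 10 held 70.0%. For 30 pseudogenes the total exceeded that of the parent, although for 21 of these the parent was Rps12, which was listed at 0 in every mouse.

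The sequences of the genes with the most reads and of those with the most variable reads were first set beside those of their parents. The last 60 bases that align to the coding part of the parent are shown, since QuantSeq reads come from 3′ ends and these windows show how little separates a copy from its parent. Sequences are those of the GENCODE M21 transcripts on GRCm38, 5′ to 3′; capitals mark the bases that differ, and positions in substitutions are counted from 1 at the 5′ end of the window, with the base of the parent first. Rps23-ps1, Rpl10a-ps1 and Rps12-ps4 did not differ from their parents in this window. Rpl34-ps1 (C24G), Rpl30-ps9 (G54A) and Rps15a-ps7 (C29G) each differed at 1 base.
Rps23-ps1 and Rps23: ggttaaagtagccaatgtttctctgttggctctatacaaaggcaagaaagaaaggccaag
Rpl10a-ps1 and Rpl10a: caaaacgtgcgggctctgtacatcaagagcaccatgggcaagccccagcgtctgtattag
Rps12-ps4 and Rps12: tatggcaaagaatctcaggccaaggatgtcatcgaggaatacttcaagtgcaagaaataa
Rpl34-ps1: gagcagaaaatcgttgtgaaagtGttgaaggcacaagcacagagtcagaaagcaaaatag
Rpl34: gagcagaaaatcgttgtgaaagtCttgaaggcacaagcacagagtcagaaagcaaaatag
Rpl30-ps9: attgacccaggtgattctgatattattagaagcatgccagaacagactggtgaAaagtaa
Rpl30: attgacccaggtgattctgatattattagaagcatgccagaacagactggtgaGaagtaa
Rps15a-ps7: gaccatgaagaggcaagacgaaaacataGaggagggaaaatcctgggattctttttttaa
Rps15a: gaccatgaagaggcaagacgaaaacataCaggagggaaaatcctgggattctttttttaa

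To measure this for every pseudogene, each annotated transcript was cut into all overlapping words of 31 bases, and the percent of words found in no other annotated gene was taken as its unshared sequence. The median over the 164 genes was 23.8%, and 30 had no unshared word at all. In the last 150 bases, closest to where QuantSeq reads start, 52 had none. Aligned to the transcript of the parent over at least 80% of their length, 162 pseudogenes had a median identity of 98.0%, and 13 were identical to it there.

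For what follows, a pseudogene is called on in a mouse with at least 10 reads and off with under 0.5 reads. By this measure 20 pseudogenes were on in all 31 mice and 11 more in 30, while 42 were on in none. A group of 50 was on in at least 3 mice and off in at least 3. The number of pseudogenes on in a mouse ran from 36 to 70 with a median of 53, with 36 in CYFIP1 OE 1 and 43 the next lowest.

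The 3 groups differed in how much of their sequence they shared with other genes. Those on in at least 30 mice (n = 31) had a median of 0% unshared words and 99.7% identity with the parent, and 12 were identical to it. Those on in some mice and off in others (n = 50) had 21.7% unshared words and 98.4% identity, with 1 identical. Those on in no mouse (n = 42) had 54.6% unshared words and 95.8% identity, with 0 identical. Over all 164, Spearman's rho with the total reads was -0.54 for the unshared percent and 0.60 for the identity (n = 162). These are descriptions across genes, which share libraries and parents and are not independent replicates.

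**Figure D1:**
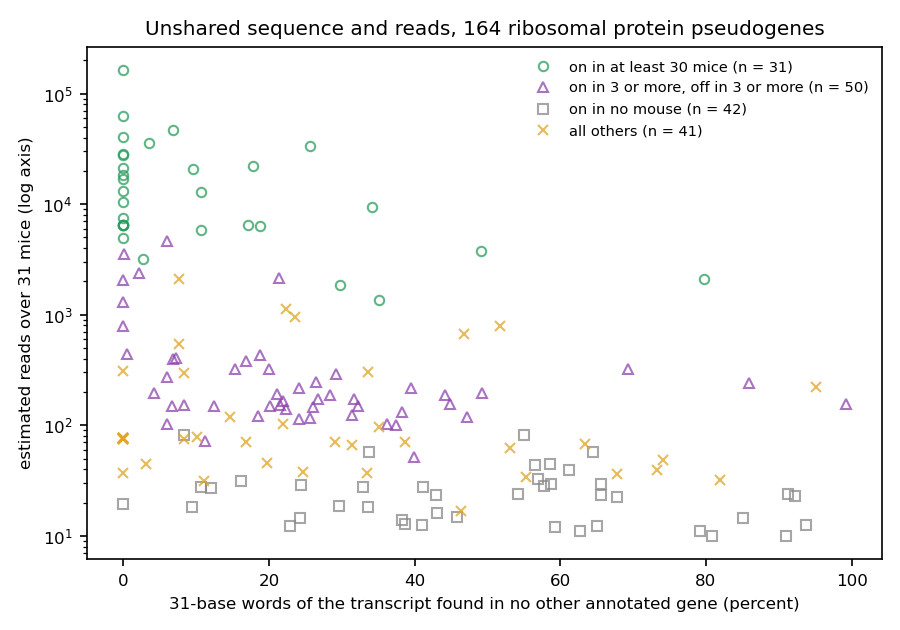
Percent of 31-base words of each pseudogene transcript found in no other annotated gene (horizontal) against its total estimated reads over 31 mice (vertical, log axis). Each point is 1 of 164 pseudogenes; circles, triangles and squares mark those on in at least 30 mice (n = 31), on in some and off in others (n = 50) and on in no mouse (n = 42), crosses the other 41, and the circles gather at the left, with a median of 0%.

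The form of the counts was described next. A read that matches 1 transcript alone adds a whole number, and a divided read adds a fraction. In 138 of 164 pseudogenes (84.1%) at least 90% of the values above 0 were not whole (tolerance 0.01 reads), against 46.8% of 1604 other processed pseudogenes with at least 10 reads and 27.6% of all 26953 genes with as many. The parents showed the same form, in 45 of 50 with reads (90%). The tolerance decides these shares. At 0.1 reads 20 pseudogenes (12.2%) had at least 90% of values not whole, against 11.8% of the other processed pseudogenes, 12% of the parents and 3.5% of all genes.

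The estimates ran to very small fractions of a read. Of the 5084 pseudogene values (164 genes in 31 mice), 40.8% were exactly 0 and 31.8% were 10 or more. A further 26 lay above 0 and under 0.001 reads, the smallest being 8.26e-08 reads for Rpl34-ps1. Among all genes 445 values, or 0.0533%, lay in that range, against 0.511% of the pseudogene values.

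In 3 sets of pseudogenes the counts were the same in every mouse. Rpl35a-ps2, Rpl35a-ps3, Rpl35a-ps4 and Rpl35a-ps6 have 1 annotated sequence of 333 bases in common, and each was given 21.5 to 36.1 CPM in the 30 mice other than CYFIP1 OE 1. Rps12-ps11 to Rps12-ps15 share 1 sequence of 399 bases. The third set holds Rps12-ps6, Rps12-ps17 and Rps12-ps18, which share another sequence of 399 bases, and Rps12-ps16, which has a different sequence. The values of genes in these sets are single estimates counted several times over. All genes outside the rule for named genes, these sets among them, were chosen after their values were seen.

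Rps23-ps1 was the most abundant ribosomal protein pseudogene (chromosome 3, 37714740 to 37715164, plus strand, over an exon of Gm5148 on the opposite strand). Its parent Rps23 encodes a protein of the decoding region of the small subunit. Rps23-ps1 had 152 to 859 CPM with a median of 725 over 31 mice, and 542 to 859 without CYFIP1 OE 1. Rps23 had 35.3 to 85.5 CPM with a median of 50.8. In each mouse the pseudogene exceeded the parent, with a median of 92.9% of the reads of the pair. All of its 395 words occur in Rps23.

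The same order was seen for Rpl31-ps8 (chromosome 15, 90764279 to 90764656, minus strand, in no other gene), a copy of a large subunit gene, with 43.2 to 430 CPM and a median of 269 against a median of 91.0 CPM for Rpl31. It exceeded the parent in all mice but CYFIP1 OE 1, where the pseudogene held 22.4% of the pair against 64.8% to 83.2% in the other 30. Rpl31 itself had 149 CPM in that mouse, against 49.9 to 120 CPM in the others. Rpl39-ps (chromosome 15, 102635038 to 102635188, plus strand, in no other gene) had 23.9 to 200 CPM with a median of 146 against 70.5 CPM for Rpl39, which encodes one of the smallest ribosomal proteins. Its annotated transcript of 151 bases has 25.6% unshared words, the most of these 6 genes.

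Rpl10a-ps1 (chromosome 1, 64993951 to 64994604, minus strand, in no other gene) is identical to Rpl10a over its 654 bases. It had 135 to 239 CPM in 30 mice and 0 in CYFIP1 OE 1, where Rpl10a had 151 CPM against 16.0 to 52.0 CPM in the others. The sum of the pair in that mouse was 151 CPM, just under the 163 to 271 CPM of the other 30. The coefficient of variation (CV) of the sum over 31 mice was 13.3%, against 23.8% for the pseudogene and 69.6% for the parent. In the other 30 mice the values were 12.4%, 14.7% and 31.1%.

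Rpl10-ps3 (chromosome 9, 50344201 to 50344968, minus strand, in no other gene) and Rpl23a-ps3 (chromosome 14, 34170655 to 34171122, plus strand, in no other gene) had reads close to those of their parents. Rpl10-ps3 had 93.2 to 266 CPM in 30 mice and 0 in CYFIP1 OE 1, and Rpl10, a large subunit protein added late in ribosome assembly, had a median of 134 CPM. Rpl23a-ps3 had 105 to 285 CPM in 30 mice and 2.92 in CYFIP1 OE 1, with a median of 171 CPM for Rpl23a. For both pairs the sum varied less than either gene. The CV was 12.6% for the sum of Rpl10-ps3 and Rpl10, which alone had 31.9% and 23.7%, and 10.9% for that of Rpl23a-ps3 and Rpl23a, which alone had 27.6% and 23.1%. In the other 30 mice the sums had 11.1% and 9.28%, still below either gene alone.

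**Figure D2:**
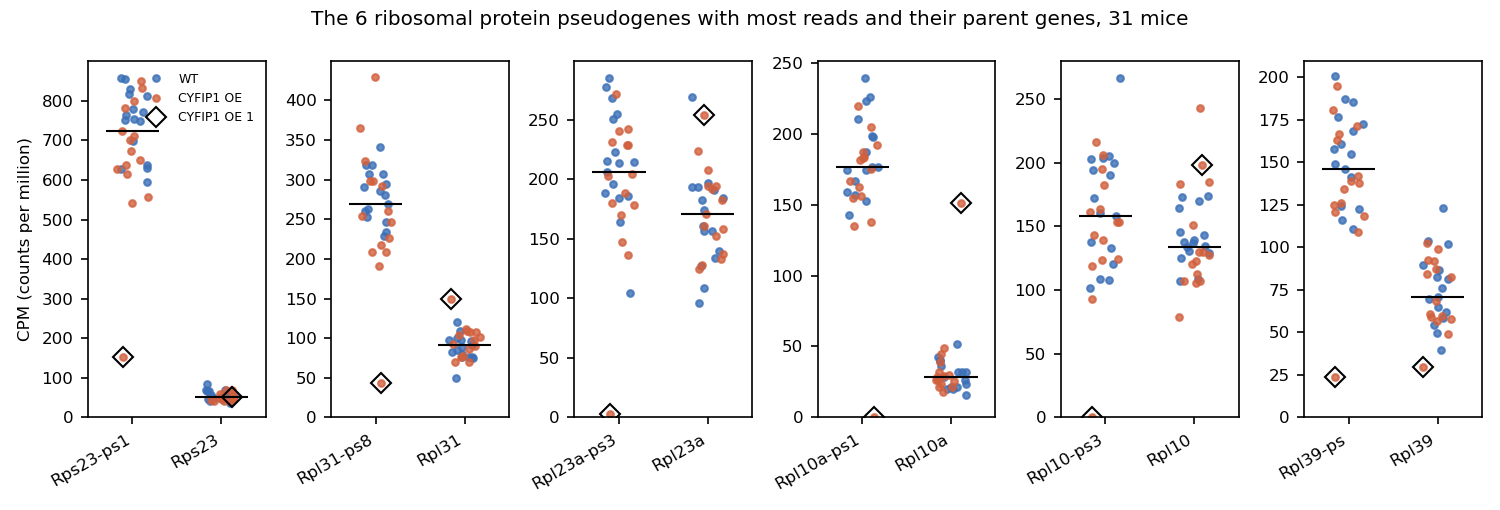
CPM (vertical, linear axes from 0) of the 6 pseudogenes with most reads beside their parent genes, each point 1 of 31 mice, blue for WT and red for CYFIP1 OE, bars at medians. CYFIP1 OE 1 (diamond) lies below all other mice for the 6 pseudogenes. Among the parents it lies above all others for Rpl10a at 151 CPM and Rpl31 at 149 CPM, and below all others for Rpl39 at 29.8 CPM.

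Across mice, few pseudogenes had a relation to their parent that passed adjustment, which does not show that the others had none. Pearson's r was computed between the CPM of each of 65 pseudogenes that passed the filter on low counts (at least 10 reads in 7 of 31 mice) and that of its parent, within a family of 463 relations over all scales and sets of mice, over which the p-values of two-sided permutation tests (100000 resamples) were adjusted. The median r was 0.06, with 37 positive and 28 negative. After adjustment 7 were positive and 3 negative, and by Spearman's rho 5 were positive and 2 negative. Of the 7, 4 were the Rpl35a pseudogenes with the same counts (r = 0.52, adjusted p = 0.0422, rho = 0.57). Without CYFIP1 OE 1, 3 positive and 2 negative relations passed, and the median r was 0.13.

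Rpl23a-ps3 was lower where Rpl23a was higher. Over 31 mice rho was -0.56 (permutation p = 0.00154, adjusted p = 0.0190). Pearson's r was -0.69 (adjusted p = 0.000617, from a permutation p of 2e-05), -0.62 without CYFIP1 OE 1 (adjusted p = 0.00523) and -0.50 without the 2 mice farthest from the median of Rpl23a. Within line 1 r was -0.61 (adjusted p = 0.104) and within line 3 -0.73 (adjusted p = 0.0261).

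Rpl10-ps3 was likewise lower where Rpl10 was higher, with r of -0.66 (permutation p = 0.00015, adjusted p = 0.00347) and rho of -0.62 (permutation p = 0.00029, adjusted p = 0.00790). Without CYFIP1 OE 1 r was -0.61 (adjusted p = 0.00634), and without the 2 farthest mice -0.56. Within line 1 r was -0.87 (permutation p = 1e-05, the smallest these permutations can give, adjusted p = 0.000514). Within line 3 r was -0.61 (adjusted p = 0.104) but -0.12 without the 2 farthest mice, so that there the relation rested on them.

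The relation of Rpl10a-ps1 to Rpl10a rested on a single mouse. Over 31 mice rho was -0.33 (permutation p = 0.0760, adjusted p = 0.273). Pearson's r was -0.77 (adjusted p = 0.0422, from a permutation p of 0.00372), and it was -0.23 without CYFIP1 OE 1 (adjusted p = 0.438). Within line 1 r was -0.37 (adjusted p = 0.383), within line 3 it was -0.84 (adjusted p = 0.132), and without the 2 farthest mice it was -0.18.

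Rpl39-ps moved the other way, rising with Rpl39. Over 31 mice rho was 0.67 (permutation p = 6e-05, adjusted p = 0.00214). Pearson's r was 0.68 (adjusted p = 0.000514, from a permutation p of 1e-05, again the smallest possible), with 0.62 without CYFIP1 OE 1 (adjusted p = 0.00505) and 0.61 without the 2 farthest mice. Within line 1 r was 0.48 (adjusted p = 0.228) and within line 3 0.76 (adjusted p = 0.01). The last positive relations were those of Rps15a-ps7 with Rps15a (r = 0.53, adjusted p = 0.00959) and of Rpsa-ps10 with Rpsa (r = 0.57, adjusted p = 0.0148), for which rho was 0.41 and 0.48 with adjusted p of 0.153 and 0.0692 by permutation. For Rpl31-ps8, r with Rpl31 was -0.05 (adjusted p = 0.903) over 31 mice and 0.50 (permutation p = 0.00485, adjusted p = 0.0499) without CYFIP1 OE 1.

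**Figure D3:**
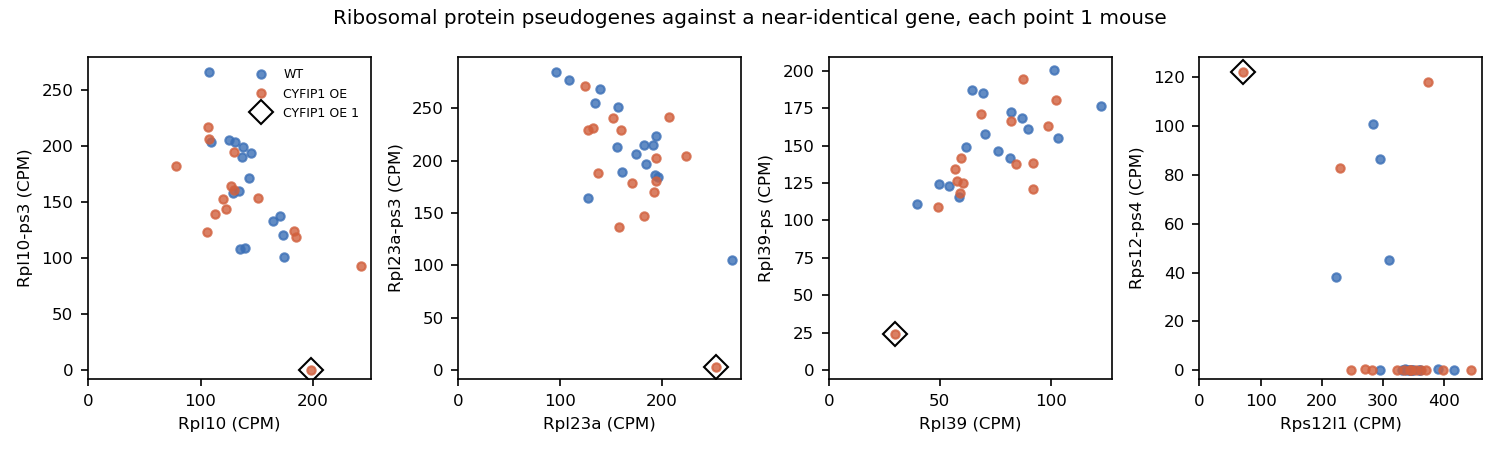
CPM of 4 pseudogenes (vertical) against that of a near-identical gene (horizontal), each point 1 of 31 mice, blue for WT and red for CYFIP1 OE, with CYFIP1 OE 1 as a diamond. Rpl10-ps3 and Rpl23a-ps3 fall as the parent rises (r = -0.66 and -0.69), Rpl39-ps rises with it (r = 0.68), and Rps12-ps4, set against Rps12l1, is at or near 0 in most mice and at least 38.4 CPM in 7.

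To describe the copies of a parent as a whole, the counts of each parent and all annotated genes that share at least 20 coding words with it were summed into a family. The families varied little, with a median CV of 16.0% over 31 mice (9.75% to 26.0%), against 17.0% for the 50 parents with reads and 62.8% for the 69 pseudogenes that passed the filter. In 34 of 50 families the sum varied less than the parent alone over all 31 mice, a count not made without CYFIP1 OE 1. In some of these the parent held nearly all reads and the gap was small, as in Rpl7 (15.4% against 15.5%). A median of 81.4% of the reads of a family lay on its largest gene, so that a steadier sum than a pseudogene with few reads follows from the way it was made. Low counts raise a CV through counting error, and how much of the spread of single pseudogenes this makes up was not tested.

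Counting error was taken out in the edgeR fit. The biological coefficient of variation, the spread beyond counting error, had a median of 62.5% for 69 pseudogenes, 19.1% for 50 parents and 34.2% for all 17428 genes that passed the filter. For 337 other processed pseudogenes it was 63.6%, close to that of the ribosomal protein pseudogenes. This fit included CYFIP1 OE 1, in which 11 pseudogenes on in all other mice were off, among them Rpl10a-ps1 and Rpl10-ps3. In the fit these genes had 54.4% and 55.5%, while their CVs in CPM without that mouse were 14.7% and 25.5%. The median was not computed without it. Error in dividing reads among copies was not measured and remains in these values, so they are not a measure of biological spread alone.

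In the Rps12 family all reads were assigned to copies. Rps12, a small subunit protein gene, was listed at 0 in all 31 mice. The family had 239 to 554 CPM with a CV of 15.5%, and 81.4% of its reads went to Rps12l1, a processed pseudogene whose symbol falls outside the rule. Rps12-ps3 (chromosome 19, 59322290 to 59322783, plus strand, within Pdzd8 on the opposite strand), identical to the Rps12 transcript over its 494 bases, had 24.4 to 74.1 CPM and was on in every mouse. Which of these copies gave rise to the reads cannot be told apart where they share all words.

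Rps12-ps4 (chromosome 7, 30484701 to 30485097, minus strand, over an exon of Nphs1 on the opposite strand) was the pseudogene with the highest counts among those on in some mice and off in others. It had 956 reads in CYFIP1 OE 4, 916 in CYFIP1 OE 1, 838 in WT 9, 675 in WT 7, 601 in CYFIP1 OE 11, 388 in WT 6 and 246 in WT 16. In 20 mice it had under 0.5 reads and in 3 between 2.56 and 3.56 reads, while CYFIP1 OE 6 had 0.502. The 7 mice with reads came from both genotypes (4 WT, 3 CYFIP1 OE), both lines (4 and 3) and 5 name groups, and in each of these 5 groups another mouse was off. Its share of the family was 51.1% in CYFIP1 OE 1 and reached 23.3% in the others. Its CV was 203%, and the sum of Rps12l1 and Rps12-ps4 had a CV of 16.7%, against 21.2% for Rps12l1 alone. Without CYFIP1 OE 1 the values were 14.7% and 15.4%, so that most of this gap rested on that mouse.

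The 50 pseudogenes on in some mice and off in others made up 30.5% of the 164. The share was 17.2% of 1604 other processed pseudogenes, 8.37% of other protein coding genes and 12.2% of all genes with at least 10 reads, and it was 0% of the parents. These shares are descriptions and depend on total reads, which differ between the classes (median 123 for the ribosomal protein pseudogenes, 41.0 for the other processed pseudogenes). Of the 50, 22 did not pass the filter on low counts. Their CV ran from 71.0% to 272% with a median of 143%, and the highest share of its family that one of them took in any mouse had a median of 1.77%.

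Mice on and mice off were found within lines and within name groups. In 49 of the 50 there was a name group with both a mouse on and a mouse off, and the median was 3 such groups. Within the 7 WT mice of line 1 named X426.B, 36 pseudogenes were on in some and off in others. In no case were all mice of 1 line on and all of the other off. Only 4 were on in 1 line alone (Rpl31-ps11 in line 1 and Rpl27-ps1, Rpl21-ps12 and Rpl17-ps10 in line 3), and Rpl31-ps11 was the one on in 1 name group alone. Rpl27-ps1 and Rpl31-ps11 were on in WT mice alone and 0 were on in CYFIP1 OE mice alone. None of these counts was made for other genes on in some mice and off in others. Whether they are particular to these pseudogenes was not tested. The number on per mouse, of these 50, ran from 7 in CYFIP1 OE 7 to 20 in WT 1, CYFIP1 OE 5 and CYFIP1 OE 9.

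**Figure D4:**
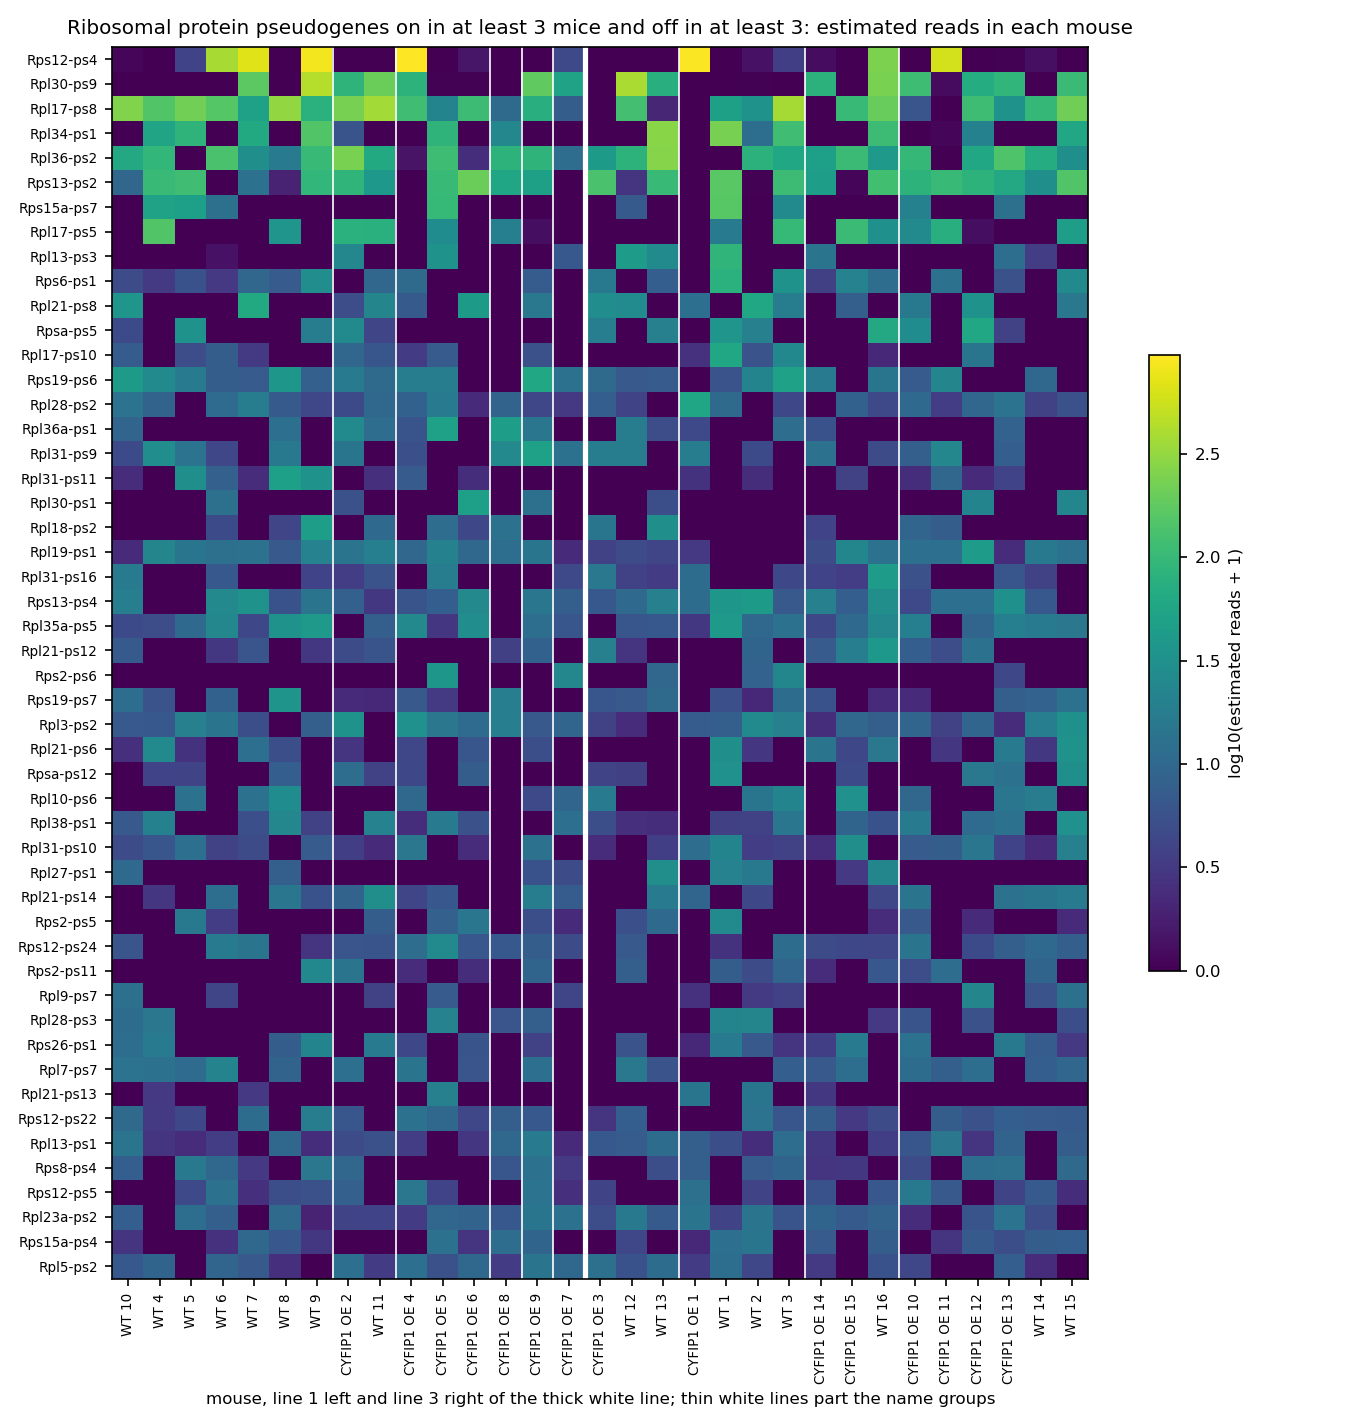
Estimated reads, as log10(reads + 1) on the colour scale, of the 50 pseudogenes on in at least 3 and off in at least 3 of 31 mice (columns), ordered by highest count, with line 1 left and line 3 right of the thick line and name groups parted by thin lines. Bright and dark cells alternate within name groups, as for Rps12-ps4 in the 7 mice of X426.B, 3 of which were on and 3 off.

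Of the 8 with the highest counts, Rpl30-ps9 (chromosome X, 105278637 to 105278981, minus strand, in no other gene) divided the mice most evenly, with 15 on and 16 off. Its parent Rpl30 encodes a large subunit protein. In WT it ran from 0 to 442 reads (7 on, 9 off) and in CYFIP1 OE mice from 0 to 180 (8 on, 7 off), so that the genotypes overlapped. Both lines had 8 mice off. In WT 9, with 442 reads, and WT 12, with 401, it was at its highest, and its share of the family reached 27.2%.

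Rpl36-ps2 (chromosome 11, 76601319 to 76601629, plus strand, within Abr on the opposite strand) and Rps13-ps2 (chromosome 7, 88530446 to 88530898, minus strand, in no other gene) were on in most mice. Rpl36-ps2 was on in 25 and off in 5, with a median of 62.0 reads and a highest value of 274 reads. Rps13-ps2 was on in 22 and off in 6, with a median of 61.5 reads and a highest value of 203 reads. All words of Rps13-ps2 occur in Rps13, while 21.4% of those of Rpl36-ps2 were unshared.

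Rpl17-ps5 (chromosome 5, 22612628 to 22613182, minus strand, within 6030443J06Rik on the opposite strand) was on in 13 mice and off in 18, with up to 147 reads. Rps15a-ps7 (chromosome 2, 152185291 to 152185682, minus strand, in no other gene) was on in 8 and off in 22, with 159 reads in WT 1 and 97.9 in CYFIP1 OE 5. Both were on and off in each line and genotype. Rps15a-ps7 has 18.8% unshared words and Rpl17-ps5 has none.

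CYFIP1 OE 1 differed from the other 30 mice in nearly all of the abundant pseudogenes. Of the 31 pseudogenes on in all 30 other mice, 11 were off in it and 27 lay below the lowest other mouse. The 11 were Rpl10a-ps1, Rpl10-ps3, Rpl38-ps2, Rps25-ps1, Rpl36a-ps2, Rpl17-ps9, Rps6-ps4, Rpl15-ps3, Rps16-ps2, Rpsa-ps10 and Rpl36a-ps3, and each was at exactly 0 reads. For no other mouse was there a pseudogene off in it and on in all the rest.

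None of the 50 parents with reads was off in CYFIP1 OE 1. Of the 10 parents of the 11, 5 were above the median of the other mice and 2 above the highest, namely Rpl10a (151 CPM against 16.0 to 52.0) and Rpl17 (104 CPM against 43.3 to 88.5). The other 5 were below the median, and Rpl36a, the parent of 2 of the 11, was below every other mouse (110 CPM against 115 to 188). The mouse also had the lowest share of reads on the 51 parents (0.743%, the next lowest 0.795%), and 47 of 51 family sums were below the median of the others, at a median of 59.4% of it. Rpl38-ps2, identical to Rpl38 over 213 bases, had 78.8 to 162 CPM in the other mice, and its parent, with 194 CPM, lay within their range of 161 to 383. One pseudogene went the other way: Rpl36-ps12 had 35.1 CPM in CYFIP1 OE 1 and 3.52 to 13.3 CPM in the others.

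The same mouse differed less in other classes of gene. Of other processed pseudogenes on in all other mice, 10 of 87 (11.5%) were off in it, against 35.5% of the ribosomal protein pseudogenes, and of other protein coding genes 7 of 10073 (0.0695%). Its total count of 7497729 was within the range of the others. It had the highest sums of markers of glutamatergic neurons (2627 CPM) and microglia (214 CPM) and the lowest sums of markers of GABA neurons (89.5 CPM), striatum (129 CPM), thalamus (56.6 CPM) and oligodendrocytes (638 CPM). The part of cell makeup, RNA quality or processing of this library in its pseudogene counts was not tested.

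CYFIP1 OE and WT mice were compared by a quasi-likelihood fit in edgeR, with sex, line and genotype as terms, in all 31 mice and all 17428 genes that passed the filter, 69 of them ribosomal protein pseudogenes. In line 1, 7 of the 8 WT mice were from name group X426.B, which held no CYFIP1 OE mouse. Of the name groups of line 1, X429.A alone held both genotypes. Genotype and name group can therefore not be told apart for most mice of line 1, and this fit has no term for name group. No pseudogene passed an adjusted p of 0.05 (0 of 69, and 0% of all genes). At an unadjusted p under 0.005, the threshold of the study, 1 of 69 passed (0.293% of all genes in either direction, 0.178% lower in CYFIP1 OE), and at an unadjusted p under 0.05, 6 of 69 passed (4.3% of all genes). DESeq2 gave 0 at the adjusted threshold, 0 under 0.005 and 5 under 0.05 (0%, 0.465% and 4.67% of all genes). In 27 of 69 the log2 fold change was positive, with a median of -0.07, against -0.01 over all genes. Without CYFIP1 OE 1, 41 of 73 were positive and the median was 0.03, so that the direction of the median turned with this mouse. With name group in place of line the median was -0.34, against -0.02 over all genes, and 10 of 69 passed an unadjusted p of 0.05 (5.5% of all genes). That fit compares the genotypes within the 5 name groups that held both. Among them is X424.C, whose only CYFIP1 OE mouse was CYFIP1 OE 1, and the fit was not run without this mouse.

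The pseudogene that passed the 0.005 threshold was Rpl34-ps1 (chromosome 6, 71124610 to 71124963, plus strand, in no other gene), a copy of the large subunit gene Rpl34 with no unshared word. In WT it had 0 to 283 reads with a median of 56.0 and was on in 10 of 16 mice, and in CYFIP1 OE mice 0 to 84.9 reads with a median near 0 and was on in 3 of 15. The genotypes overlapped, since 6 WT mice were off. The mean level was 9.39 ± 11.04 CPM for WT (SD, n = 16) against 1.18 ± 2.84 CPM for CYFIP1 OE (SD, n = 15). The log2 fold change was -2.97 ± 0.89 (SE, p = 0.00212, adjusted p = 0.999, edgeR). Here and below the SE of a log2 value was worked back from the test and is not an estimate of the fit. Over 11 alternatives the log2 fold change ran from -4.80 to -2.15 and the unadjusted p from 0.00022 to 0.0874. Rpl34, which holds 95.4% of the reads of the family, had a log2 fold change of 0.05 ± 0.10 (SE, p = 0.639).

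Next came Rpl17-ps8 and Rps2-ps10. Rpl17-ps8 (chromosome X, 96484859 to 96485479, plus strand, within Heph on the same strand) averaged 22.7 ± 16.9 CPM for WT against 7.62 ± 9.64 CPM for CYFIP1 OE (SD, n = 16 and 15), and its log2 fold change was -1.53 ± 0.58 (SE, p = 0.0119, adjusted p = 0.999, edgeR). It was on in 15 of 16 WT mice and 8 of 15 CYFIP1 OE mice. Rps2-ps10 had 12.5 ± 3.67 and 16.1 ± 7.40 CPM, with a log2 fold change of 0.45 ± 0.19 (SE, p = 0.0204, adjusted p = 0.999, edgeR). Neither Rpl17 (0.17 ± 0.11, p = 0.134) nor Rps2 (-0.09 ± 0.12, p = 0.441) passed either.

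The study lists Rpl34-ps1 for genotype and chose it on these samples, so that its values are not independent evidence of a direction. Each parent was also summed with its pseudogenes, or with its whole family. Of either kind, 0 of 51 sums passed an unadjusted p of 0.05 for genotype by edgeR (4.31% and 4.27% of all features). At the adjusted threshold 0 passed (0% of all features). DESeq2 was not run on the sums.

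**Figure D5:**
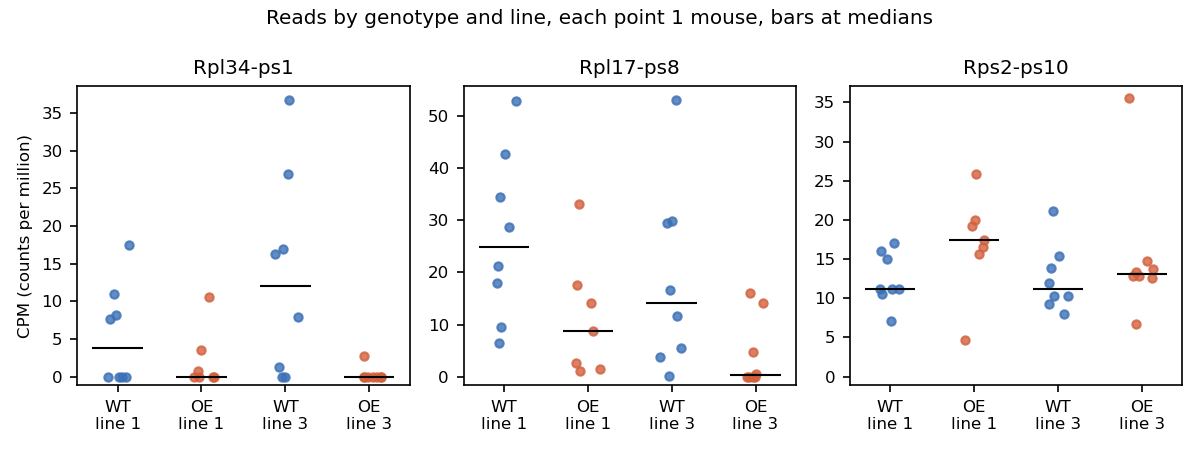
CPM (vertical, linear axes) by genotype and line (horizontal) of the 3 pseudogenes with the smallest p for genotype, each point 1 mouse, bars at medians of 8 WT and 7 CYFIP1 OE mice in line 1 and 8 of each in line 3. The groups overlap in each panel, and Rpl34-ps1 is near 0 in most CYFIP1 OE mice and in 6 WT mice.

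The lines were compared in the same fit. No pseudogene passed an adjusted p of 0.05 (0 of 69, and 0% of all genes) or an unadjusted p of 0.005 (0 of 69, and 0.189% of all genes, 0.0631% higher and 0.126% lower in line 3), and 2 of 69 passed an unadjusted p of 0.05 (3.31% of all genes). DESeq2 gave 0, 1 and 2 (0%, 0.43% and 3.81% of all genes). Rpl36a-ps1 (chromosome 14, 98993870 to 98994318, minus strand, in no other gene) had 1.56 ± 2.32 CPM in line 1 and 0.411 ± 0.683 CPM in line 3 (SD, n = 15 and 16), a log2 difference of -2.41 ± 0.86 for line 3 against line 1 (SE, p = 0.00858, adjusted p = 1.000, edgeR), but 0.01 in WT mice alone. It was off in 7 and 10 mice.

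Rps6-ps1 (chromosome 15, 76337616 to 76338362, plus strand, in no other gene) had 0.673 ± 0.863 CPM in line 1 and 1.76 ± 2.48 CPM in line 3, a log2 difference of 1.58 ± 0.76 (SE, p = 0.0465, adjusted p = 1.000, edgeR). Rps27a-ps2 (chromosome 9, 83409660 to 83410126, plus strand, within Lca5 on the opposite strand) had 19.3 ± 4.79 and 23.0 ± 6.67 CPM (SD, n = 15 and 16), a log2 difference of 0.27 ± 0.14 (SE, p = 0.0606, adjusted p = 1.000, edgeR). The lines overlapped for each of these genes. For the sums with the parent or the family, 2 of 51 passed an unadjusted p of 0.05 (3.32% and 3.25% of all features). Of either kind of sum, 4 of 51 were higher in line 3, with medians of -0.07 and -0.08 on the log2 scale, while 51.8% of all genes were higher. Line 3 holds CYFIP1 OE 1, in which 47 of 51 family sums were below the median of the others. The sums were not fitted without this mouse, so how far these medians rest on it was not tested.

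Name groups were compared within lines, in a fit with sex, genotype and name group as terms. No pseudogene passed an adjusted p of 0.05 (0 of 69, and 0.0115% of all genes) or an unadjusted p of 0.005 (0 of 69, and 0.912% of all genes), and 3 of 69 passed 0.05 (6.79% of all genes). DESeq2 gave 0, 1 and 4 (0.901%, 2.89% and 10.5% of all genes). The 3 were Rpl13-ps3 (p = 0.0134, adjusted p = 0.617, edgeR), Rpl19-ps1 (p = 0.0147, adjusted p = 0.630, edgeR) and Rps15a-ps7 (p = 0.0277, adjusted p = 0.681, edgeR). By DESeq2 the unadjusted p was 0.916 for Rpl13-ps3 and 0.954 for Rps15a-ps7, which did not pass, and 0.00065 for Rpl19-ps1. Without CYFIP1 OE 1, 10 of 73 pseudogenes passed an unadjusted p of 0.05 (6.87% of all genes), and of the sums with the parent and with the family 9 and 8 of 51 did (6.84% and 6.77% of all features). Name groups of 1 mouse add nothing to the error of this test, and 3 of 10 groups held 1 mouse.

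Rpl19-ps1 was the 1 gene of the 50 with no name group that held both a mouse on and a mouse off. It lies on chromosome 1 (85012114 to 85012704, plus strand) and overlaps an exon of Gm27907 on the same strand, so that reads of the genes may not be told apart, and 20% of its words are unshared. It was at 0 reads in 3 mice, the 3 WT mice of X424.C, and had 2.16 reads in the CYFIP1 OE mouse of that group, CYFIP1 OE 1. In the other 27 mice it had at least 1.33 reads and at most 43.4. These counts are low, and the mice off are few.

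Rpl13-ps3 (chromosome 14, 58893506 to 58894129, plus strand, in no other gene) was the pseudogene with the smallest p for a difference between lines in the effect of genotype. In line 1 it was on in 0 of 8 WT and 2 of 7 CYFIP1 OE mice, and in line 3 in 3 of 8 and 2 of 8. Its highest count was 89.3 reads, in WT 1. The interaction was -8.73 ± 1.98 on the log2 scale (SE, p = 0.000154, adjusted p = 0.476, edgeR). That value depends on the prior count, because all 8 WT mice of line 1 were at 0 once counts were rounded. Of 69 pseudogenes 0 passed an adjusted p of 0.05 for this interaction (0% of all genes), 1 passed an unadjusted p of 0.005 (0.843% of all genes) and 7 passed 0.05 (8.1% of all genes), and DESeq2 gave 0, 0 and 5 (0.0115%, 1.23% and 8.66% of all genes).

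Last, the place of the copies in the genome was compared with their reads. Of the 164 pseudogenes 61 lay within the span of another annotated gene, 20 of them on its strand, and 5 overlapped an exon, 2 of these on the same strand. The QuantSeq kit keeps strand, but whether the counting used it is not given in the sources used here. Of the 6 pseudogenes with the most reads, Rps23-ps1 alone overlapped another gene.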

How the data were processed

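The authors deposited 1 table of estimated counts per gene and mouse, made by mapping QuantSeq reads to GRCm38 with STAR (Gencode v11 in the methods) and quantifying genes with Salmon. Tool versions, and whether counting used strand, are not given in the sources used here. The study removed samples with a connectivity Z-score under -2; here all 31 mice were kept and the mouse below that limit was left out in an alternative.

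CPM is counts per 1e6 of the total count of the mouse. Estimated counts were rounded to whole numbers for the tests. Genes with at least 10 reads in 7 of 31 mice were fitted with edgeR 4.0.16 (R 4.3.3, TMM, quasi-likelihood, Benjamini-Hochberg adjustment), with DESeq2 1.42.0 and 5 surrogate variables (sva 3.50.0) as alternatives. Labels do not say that replicates came from separate litters, and p-values measure the spread between these mice. Symbols, places and sequences came from GENCODE M21 (GRCm38). Alignments used Biopython 1.88 and tables pandas 2.3.3.

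On simulated data for 17428 genes, 71 of 100 genes changed by a log2 of 1 and 93 of 100 changed by a log2 of 2 were recovered for genotype, 67 and 90 for line, 3 and 45 for name group and 25 and 65 for the interaction. For name group the change was placed in X426.B alone. The changed genes were drawn from all 17428, with a median biological coefficient of variation of 34.2%, against 62.5% for the pseudogenes. Both values come from the fit that included the outlying mouse. Recovery was not measured for the pseudogenes alone. Named were the 6 pseudogenes with most reads, the 3 with the smallest p for genotype, line and name group, the 8 on in some and off in other mice with the highest counts, Rpl34-ps1, which the study lists, and their parents; 1 further gene is not reported here. Members and lists were chosen with earlier results of these data known. Among the alternatives, sums over families, DESeq2 for the interaction, and relations and shares without the outlying mouse were added after seeing the data.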

Additional observations from a re-analysis of the deposited data

Results flagged for a closer look

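The Dixon criterion at 95% was applied within the 4 groups formed by genotype and line (7 or 8 mice each). By it, 21 of 88 sets of values had a lowest or highest mouse that stood apart. For normally distributed values, chance alone meets this criterion in about 1 of 20 groups. That rate does not hold here, because some genes were named for being on in some mice and off in others with the highest counts. In several flagged groups the other mice also had few or no reads. The 21 of 88 can therefore not be compared with that rate. No explanation was tested for any of the 21.

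CYFIP1 OE 1 was low among the 8 CYFIP1 OE mice of line 3 in the share of all reads on the pseudogenes (0.0528%, the others 0.233% to 0.334%). It was also low there for Rps23-ps1 at 152 CPM (542 to 782 in the others), Rpl31-ps8 at 43.2 CPM (209 to 323), Rpl10a-ps1 at 0 CPM (135 to 205) and Rpl10-ps3 at 0 CPM (119 to 161). WT 14 was low for Rpl23a-ps3 at 105 CPM (164 to 215 in the other WT mice of line 3). WT 11 had the fewest pseudogenes on in its group, 49 against 53 to 56.

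The remaining values were single high mice. In CYFIP1 OE mice of line 1, Rpl34-ps1 was at 10.6 CPM in CYFIP1 OE 5 (0 to 3.52 in the others), Rps15a-ps7 at 12.3 CPM in CYFIP1 OE 5 (0 in the others), Rps12-ps4 at 118 CPM in CYFIP1 OE 4 (0 to 0.565) and Rps13-ps2 at 32.4 CPM in CYFIP1 OE 6 (0 to 13). CYFIP1 OE 2 was high for Rpl36-ps2 at 33.5 CPM (0.0548 to 14.2) and Rpl17-ps5 at 11.3 CPM (0 to 3.44).

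In CYFIP1 OE mice of line 3, Rpl34-ps1 was at 2.76 CPM in CYFIP1 OE 12 (0 to 0.0188) and Rps2-ps10 at 35.6 CPM in CYFIP1 OE 3 (6.69 to 14.8). In WT mice of line 1, Rps6-ps1 was at 3.32 CPM in WT 9 (0.246 to 1.24) and Rpl13-ps3 at 0.0473 CPM in WT 6 (0 in the others), a value under 1 read. In WT mice of line 3, Rps15a-ps7 was at 18.3 CPM in WT 1 (0 to 3.62), Rps12-ps4 at 38.4 CPM in WT 16 (0 to 0.356), Rpl36-ps2 at 35.6 CPM in WT 13 (0 to 11.6) and Rpl17-ps5 at 13.7 CPM in WT 3 (0 to 6.11).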

How the results depend on the processing

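Of 148 alternatives, 114 kept the direction and, for a single gene, its side of an adjusted p of 0.05, or kept a count within 1.5 times; an unadjusted p could still move across 0.005 or 0.05, as for Rpl34-ps1 by genotype (0.00212, with 0.0329 by DESeq2, 0.00891 with name group and 0.0874 in line 1). The number of pseudogenes under an unadjusted p of 0.005 for genotype (1 of 69, and 0.293% of all genes) became 0 with DESeq2 (0.465%) and with name group in place of line (0.625%). It was also 0 with each parent and its pseudogenes summed and with families summed (0.3% and 0.301% of all features). In line 1 alone it was 2 of 76 (0.618% of all genes) and in line 3 alone 2 of 69 (0.462%). With 5 surrogate variables it was 3 of 69 (0.637%). With all genes of at least 10 reads in total it was 4 of 164 (1.05%), and with at least 1 read 5 of 164 (1.11%). For line (0) it became 1 with DESeq2 (0.43% of all genes), in WT alone (0.685%) and in CYFIP1 OE alone (0.512%). With the looser filters it was 4 and 6 of 164 (1.23% and 1.16%). For name group (0) it became 1 with DESeq2 (2.89% of all genes) and with both kinds of sums (0.956% and 0.937% of all features), and 2 without CYFIP1 OE 1 (0.796% of all genes). With the looser filters it was 4 and 37 of 164 (0.838% and 4.64%). With at least 1 read in total 31 passed an adjusted p of 0.05 (3.92% of all genes). There the unadjusted p by edgeR was 9.83e-10 for Rpl13-ps3, 0.00114 for Rpl19-ps1 and 3.38e-12 for Rps15a-ps7. For the interaction (1) it became 0 with DESeq2. The direction turned for Rpl36a-ps1 by line (0.0075 in WT alone). The 50 on in some and off in other mice became 84 when on meant 5 reads. The 138 with values not whole became 20 at a tolerance of 0.1. The share of reads (median 0.306% of all reads) was 23.9% of those on pseudogenes and parents. Positive relations with the parent (7) became 0 in line 1, 1 in line 3 and 3 without CYFIP1 OE 1, and negative ones (3) became 1 in each line. The causes were not tested. No paired analysis was possible because the replicate numbers follow accession order and pair no mice, and the nearest fit is that with name group as a term. Counting and read assignment errors limit genes with few reads, and the files hold no measure of assignment error.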
